A study of Mus musculus with 8 samples.

Results

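The genes described here are those of collagens and of the extracellular matrix that surrounds cells, as measured in the livers of old dwarf mice. They were taken by name: every probe set that the platform annotation gave a single symbol for a collagen chain, a laminin chain, a matrix metalloproteinase, a tissue inhibitor of metalloproteinases, or one of Fn1, Dcn, Bgn, Lum, Fbn1, Sparc, Eln, Lox, Nid1, Nid2 and Tgfbi. This gave 94 probe sets for 66 genes, out of 12488 probe sets on the array. Fbn1 had no probe set with that single symbol. The 8 samples were livers of 8 female Ames dwarf (df/df) mice, all in 1 group, which ate standard pelleted chow and drank water ad libitum, aged 24 to 26 months at death. Such mice are small and long-lived, and their pituitary makes no growth hormone, prolactin or thyrotropin. Every animal carried that genotype and ate that diet, so the data hold no contrast between genotypes, diets or ages, and the values below describe how far 8 livers of 1 kind differed. Total liver RNA was measured on 1 Affymetrix U74Av2 array per liver, and each value is a signal in linear intensity units.

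In liver, the fibrillar collagens of types I, III and V form the fibres of portal tracts and of scar tissue, and stellate cells and portal fibroblasts make most of them. Collagens of types IV and XVIII, laminins and nidogens build basement membranes, which around the hepatic sinusoids are thin and incomplete. Metalloproteinases cut these proteins, and tissue inhibitors of metalloproteinases block the enzymes. Much of this RNA comes from cells other than hepatocytes, so in whole liver fewer cells of a type and less RNA per cell cannot be told apart.

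Of the 94 probe sets, 42 (44.7%) read above the highest of 19 bacterial and yeast control probe sets of the same array on all 8 arrays, 27 did so on some arrays and 25 on none. Over all 12422 probe sets that are no controls, the share above these controls on every array was 56.4%. At the level of genes, 36 of 66 had a probe set above the controls in all 8 livers and 19 in some. The 11 genes above them in none were Col11a2, Col22a1, Col4a3, Lox, Nid2, Mmp3, Mmp8, Mmp9, Mmp10, Mmp16 and Mmp24. Metalloproteinases were the group least often above the controls, with 1 of 16 probe sets on all arrays (Mmp14), while 12 of 18 probe sets of basement membrane and network collagens and 8 of 12 of the glycoproteins, proteoglycans, elastin and Lox were above them on all arrays. For fibrillar collagens the count was 5 of 13, for other collagens 7 of 13, for laminins and nidogens 6 of 16 and for the tissue inhibitors 3 of 6. A signal under these controls does not show that the RNA was absent, since probe sets differ in how brightly they read.

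**Figure D1:**
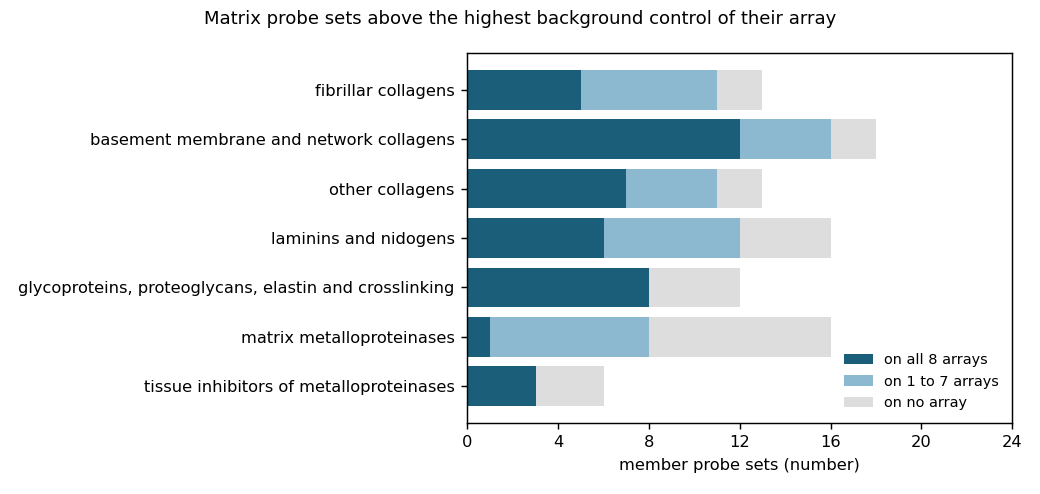
Number of matrix probe sets (horizontal axis) in each role group, split by whether their signal exceeded the highest bacterial or yeast control of the same array on all 8 arrays, on 1 to 7 or on none. Of the 16 metalloproteinase probe sets 1 was above the controls on all arrays, against 12 of 18 for basement membrane and network collagens.

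Variation between livers was tested for the 32 member probe sets, of 28 genes, whose mean log2 signal was in the upper part of the array, above a signal of 162. A probe set was called variable when its variance over the 8 livers exceeded the typical variance of probe sets of like signal (chi-square test, adjusted by Benjamini-Hochberg over all 6211 tested probe sets, threshold 0.05). Of the 32 members 7 were called (21.9%), against 12.4% of all tested probe sets. They were Col1a1, Col3a1, Col4a1, Col6a3, Bgn, Tgfbi and Timp1. Under limma's variance test, which allows for how unequal the variances of probe sets are, 0 members and 0% of all tested probe sets passed after adjustment. At an unadjusted p under 0.05 in that test there were 3 of the 32 members (Col1a1, Col4a1 and Timp1), against 425 of all 6211 tested probe sets (6.84%). So small a count does not set the members apart from all tested probe sets. With arrays scaled to the same median, 4 members were called (12.5%), against 10.6% of all. The median ratio of the highest to the lowest liver was 1.72 for the 32 member probe sets, from 1.20 for Col9a2 to 5.29 for Col1a1. Over all tested probe sets it was 1.63. Matrix genes did not share 1 order of livers: the mean correlation between pairs of the 28 genes was 0.022, beside 0.0051 between pairs of all 4819 tested genes. With 1 liver left out the former lay between -0.0038 and 0.0372, so its sign was not fixed. A mean near 0 can hold strong pairs of both signs. Single pairs ran from r = -0.91 for Col18a1 with Eln to r = 0.944 for Col1a2 with Lama4, and these extremes of 378 pairs were not tested. Each gene was read there on its brightest tested probe set, and the 2 probe sets of Col1a2 disagreed, as given below.

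**Figure D2:**
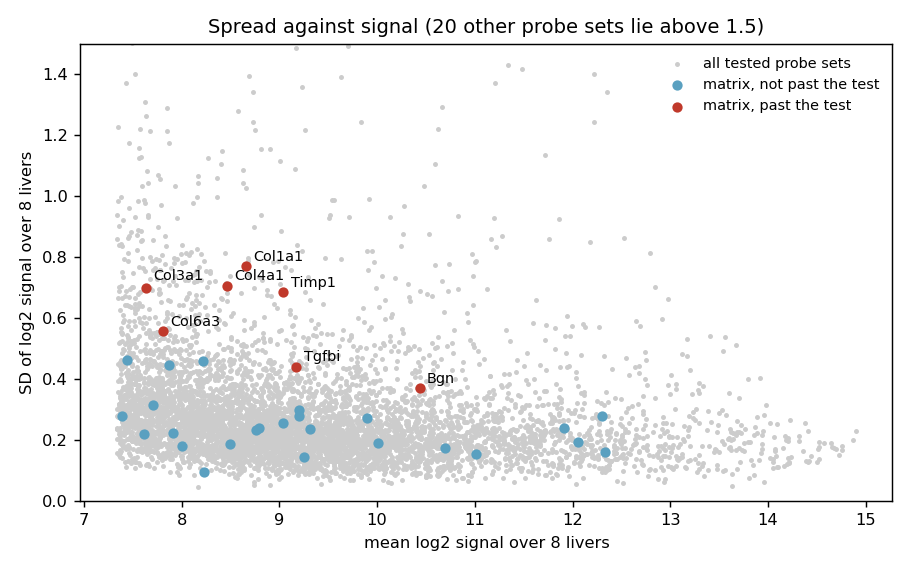
SD of log2 signal over the 8 livers (vertical axis) against mean log2 signal (horizontal axis) for all tested probe sets in grey and for the matrix probe sets in colour, red where they passed the typical-variance test. The 7 red points lie above most grey points of like signal, and 20 grey points lie beyond the top of the plot.

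Among the fibrillar collagens, Col1a1 and Col3a1 varied, and the tested probe sets of Col1a2 and Col5a1 did not pass. Col1a1, which encodes the main chain of type I collagen, had signals of 152 in liver 2, a median of 470.4 and 806 in liver 4 (453 ± 205, SD, n = 8). Livers 2 and 3 were low and liver 4 was highest, a 5.29-fold range (adjusted p = 3.44e-10), and this was the call that held with any 1 liver left out. Its dimmer probe set was also lowest in liver 2, at 17.8, and highest in liver 4, at 522, and ran with the brighter one (r = 0.873, exact permutation p = 0.00585, adjusted over 12 pairs of probe sets p = 0.0351, rho = 0.905 with p = 0.00456, r = 0.901 without livers 2 and 3, 0.895 over livers 1 to 4 and 0.781 over livers 5 to 8). Col3a1, the single chain of type III collagen, ran from 106 in liver 3 through a median of 215 to 454 in liver 4. Its 4.29-fold range passed (adjusted p = 0.000989) but not without liver 4 (adjusted p = 0.0878). Col5a1, a chain of the type V collagen that starts fibrils, lay between 521 and 699 (612 ± 61.0, SD, n = 8), a 1.34-fold range.

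Col1a2 encodes the partner chain of Col1a1, and its probe sets disagreed. The brighter one had its lowest signal, 1312, in liver 4, a median of 1662 and its highest, 1911, in liver 2, the reverse of Col1a1 at both ends. The dimmer one was above the controls on 4 arrays and read 31.8 in liver 7, a median of 64.3 and 260.1 in liver 4. It was too dim on average to be tested, but was called with the lower limit at the 25th percentile (adjusted p = 0.0324). Its next highest signal was 111.7 in liver 8, and Col1a1 was also highest in liver 4 with liver 8 next. The correlation of this dimmer probe set with Col1a1 was not run. The brighter probe set ran against Col1a1 without passing (r = -0.59, exact permutation p = 0.13, adjusted p = 0.228, rho = -0.55 with p = 0.171, r = -0.70 without livers 2 and 3, -0.71 over livers 1 to 4 and -0.21 over livers 5 to 8). The 2 Col1a2 probe sets had an r of -0.49 with each other (exact permutation p = 0.216, adjusted p = 0.518, rho = -0.095 with p = 0.84, r = -0.027 without livers 4 and 7, -0.80 over livers 1 to 4 and 0.379 over livers 5 to 8), so the direction of Col1a2 depended on the probe set read.

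Col1a1 and Col3a1, whose proteins share fibrils, moved together. Over the 8 livers r was 0.851 (exact permutation p = 0.00672, adjusted over 7 pairs p = 0.047) and rho was 0.857 (exact permutation p = 0.0107, adjusted p = 0.075). Without livers 2 and 3 r was 0.862, over livers 1 to 4 it was 0.937 and over livers 5 to 8 it was 0.594. The adjusted p stayed under the threshold in 2 of 8 runs with 1 liver left out (range 0.0347 to 0.188) and rose to 0.162 when values were centred within arrays 1 to 4 and 5 to 8, where r was 0.883. It was lost without livers 1, 3, 4, 6, 7 or 8, with r between 0.796 and 0.861 in those runs.

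The Col3a1 start region is shown as that of a member of the pair that moved together. RefSeq sequences for GRCm38.p6 held 43 of the 66 genes, and the windows cover 250 bases before the annotated start. The motifs searched on both strands were the TATA box TATAAA, the box CCAAT, the AP-1 element TGAGTCA and the GC box GGGCGG, and capitals mark each match. In the Col3a1 window, chr1:45311288-45311537 on the plus strand, 1 match was found, TATAAA at 117 to 112 bases before the start.
Col3a1: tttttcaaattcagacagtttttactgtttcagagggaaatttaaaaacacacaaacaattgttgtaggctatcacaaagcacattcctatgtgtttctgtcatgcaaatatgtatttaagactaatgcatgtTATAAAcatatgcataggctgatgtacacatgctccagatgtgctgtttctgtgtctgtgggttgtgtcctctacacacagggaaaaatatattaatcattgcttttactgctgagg
Of all 32851 promoter windows 12.37% held TATAAA, 33.85% CCAAT, 4.463% TGAGTCA and 32.74% GGGCGG. Of the 43 member genes, 9, 15, 6 and 22 held them in at least 1 window. A gene can have several windows, so these counts of genes cannot be compared with the shares of windows. A match describes letters and does not show a bound site.

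**Figure D3:**
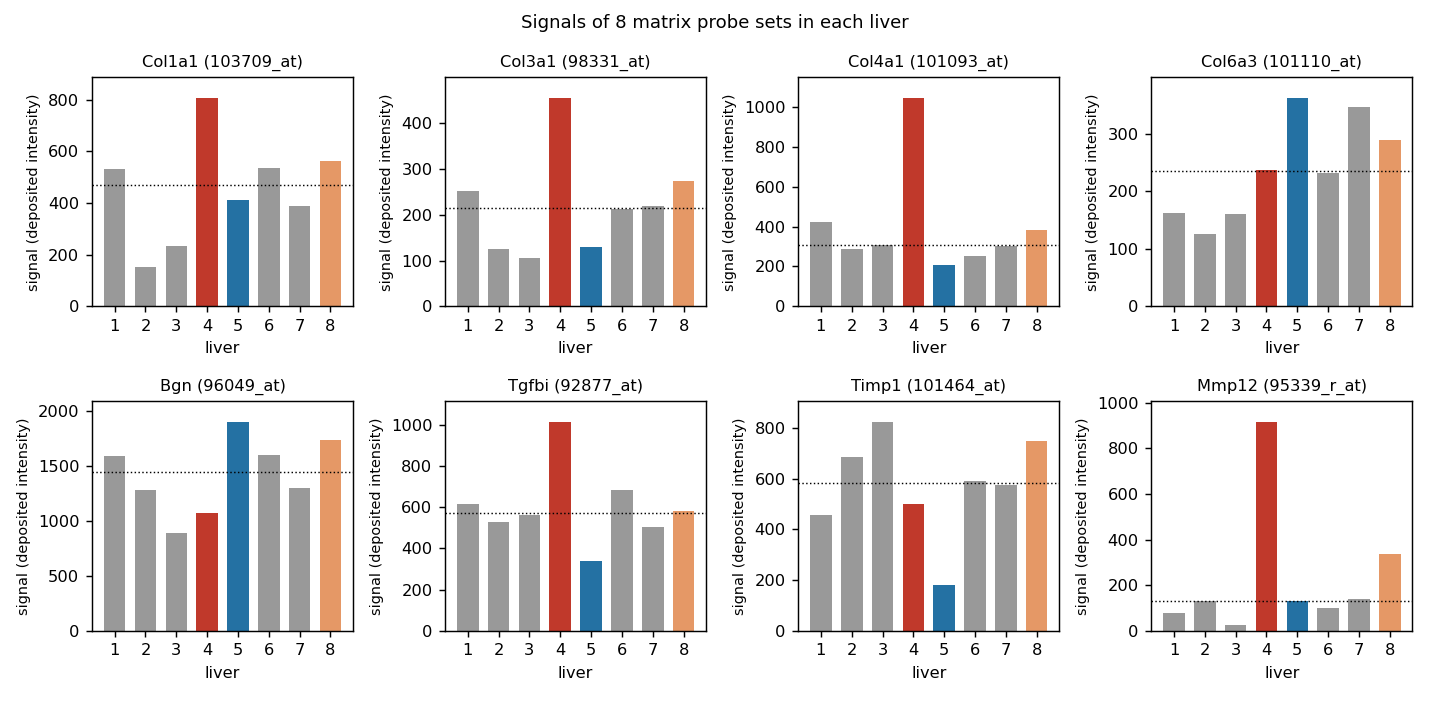
Signals in linear intensity (vertical axes, each from 0) in the 8 livers (horizontal axes) for the 7 members that passed the typical-variance test and for Mmp12, which was too dim on average to be tested. Red marks liver 4, blue liver 5, orange liver 8, and the dotted line is the median of 8 livers. Col1a1, Col3a1, Col4a1, Tgfbi and Mmp12 were highest in liver 4, and Timp1 was lowest in liver 5.

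Of the basement membrane and network collagens, 9 probe sets of 6 genes were tested, and Col4a1 and Col6a3 were called. Col4a1, a chain of the type IV collagen that forms the basement membrane sheet, had signals of 209 in liver 5, a median of 306 and 1044 in liver 4. Liver 4 stood alone, since the next liver read 422, and the 4.99-fold range (adjusted p = 3.02e-07) was not called without it (adjusted p = 0.548). Col4a2, the second chain of the same trimer, ran from 518 in liver 3 through 621 to 844 in liver 4, a 1.63-fold range that did not pass. Both genes had their highest signals in liver 4. Their r was 0.755 (exact permutation p = 0.026, adjusted p = 0.0606) and rho was 0.643 (exact permutation p = 0.0962, adjusted p = 0.224), with r = 0.601 without livers 4 and 5, 0.979 over livers 1 to 4 and 0.796 over livers 5 to 8. The pair did not pass over all livers, and without liver 5 r was 0.805 (adjusted p = 0.0431 by exact permutation). These genes lie head to head on chromosome 8 of GRCm38.p6, with the RefSeq start of Col4a1 at 11312826 on the minus strand and that of Col4a2 at 11312805 on the plus strand, so their first 22 bases overlap.

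Col6a3, the large chain of the beaded filament collagen VI, ran from 126 in liver 2 through a median of 235 to 362 in liver 5, with livers 5 and 7 high and livers 1, 2 and 3 low. Its 2.88-fold range passed (adjusted p = 0.0267), but the adjusted p was 0.13 without liver 2, 0.0776 without liver 5, 0.12 without liver 7, 0.059 with arrays scaled to the same median and 0.875 after centring within arrays 1 to 4 and 5 to 8. The other chains of that filament were more even, with Col6a1 between 319 and 538 and Col6a2 between 224 and 307. Col6a1 and Col6a2 had an r of 0.764 (exact permutation p = 0.0204, adjusted p = 0.0606) and a rho of 0.81 (exact permutation p = 0.0218, adjusted p = 0.0762), with both lowest in liver 4. That r was 0.606 without livers 2 and 4, 0.909 over livers 1 to 4 and 0.318 over livers 5 to 8. After median scaling of the arrays it passed (r = 0.821, adjusted p = 0.0366 by exact permutation), with quantile normalization (r = 0.798, adjusted p = 0.0444) and without liver 5 (r = 0.861, adjusted p = 0.0396).

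Col18a1, the precursor of endostatin and a basement membrane collagen that hepatocytes also make, had 4 tested probe sets with ranges of 1.43-fold to 1.69-fold, and none passed. The probe set with the smallest SD in this group, at 4507 in liver 6, 4995 at the median and 6431 in liver 3, belonged to it. Of the 6 pairs among these probe sets 1 agreed closely from liver to liver (r = 0.987 with an exact permutation p of 0.000397, adjusted p = 0.00476, rho = 0.976, r = 0.978 without livers 3 and 4, 0.992 over livers 1 to 4 and 0.999 over livers 5 to 8). The other 5 pairs had r between 0.211 and 0.629 and did not pass, with r from -0.35 to 0.197 without the 2 livers farthest from the median, 0.460 to 0.932 over livers 1 to 4 and -0.37 to 0.251 over livers 5 to 8.

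Among the remaining collagens, 5 probe sets were tested and 0 passed the typical-variance test (limma called 0 as well, also at an unadjusted p under 0.05). Col9a1, a chain of the cartilage collagen IX, had the largest SD, with 180.1 in liver 2, 320.1 at the median and 441 in liver 8, a 2.45-fold range (adjusted p = 0.0665). It was called without liver 3 (adjusted p = 0.0438) or liver 5 (0.0251). Col9a2, another chain of that collagen, was the most even of all 32 members, between 281 and 336 (301 ± 19.9, SD, n = 8). Col14a1, a collagen on the surface of fibrils, ran from 117 in liver 3 through 239.7 to 328 in liver 5, with liver 3 apart from the rest (adjusted p = 0.237).

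Laminins, the cross-shaped glycoproteins of basement membranes, were mostly dim. Of 16 probe sets of laminins and nidogens 2 were tested and 0 passed, by either test. Lama4, an endothelial laminin chain, lay between 94.3 in liver 4 and 243 in liver 2 with a median of 187, a 2.57-fold range (adjusted p = 0.433). Lamc1, the common gamma chain, lay between 395 in liver 4 and 648 in liver 7 with a median of 532. Both were lowest in liver 4. Lamb1, a laminin beta chain, and the nidogens Nid1 and Nid2, which link laminin to type IV collagen, had no tested probe set, so the pairs of Lamc1 with Lamb1 and Nid1 were not run.

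**Figure D4:**
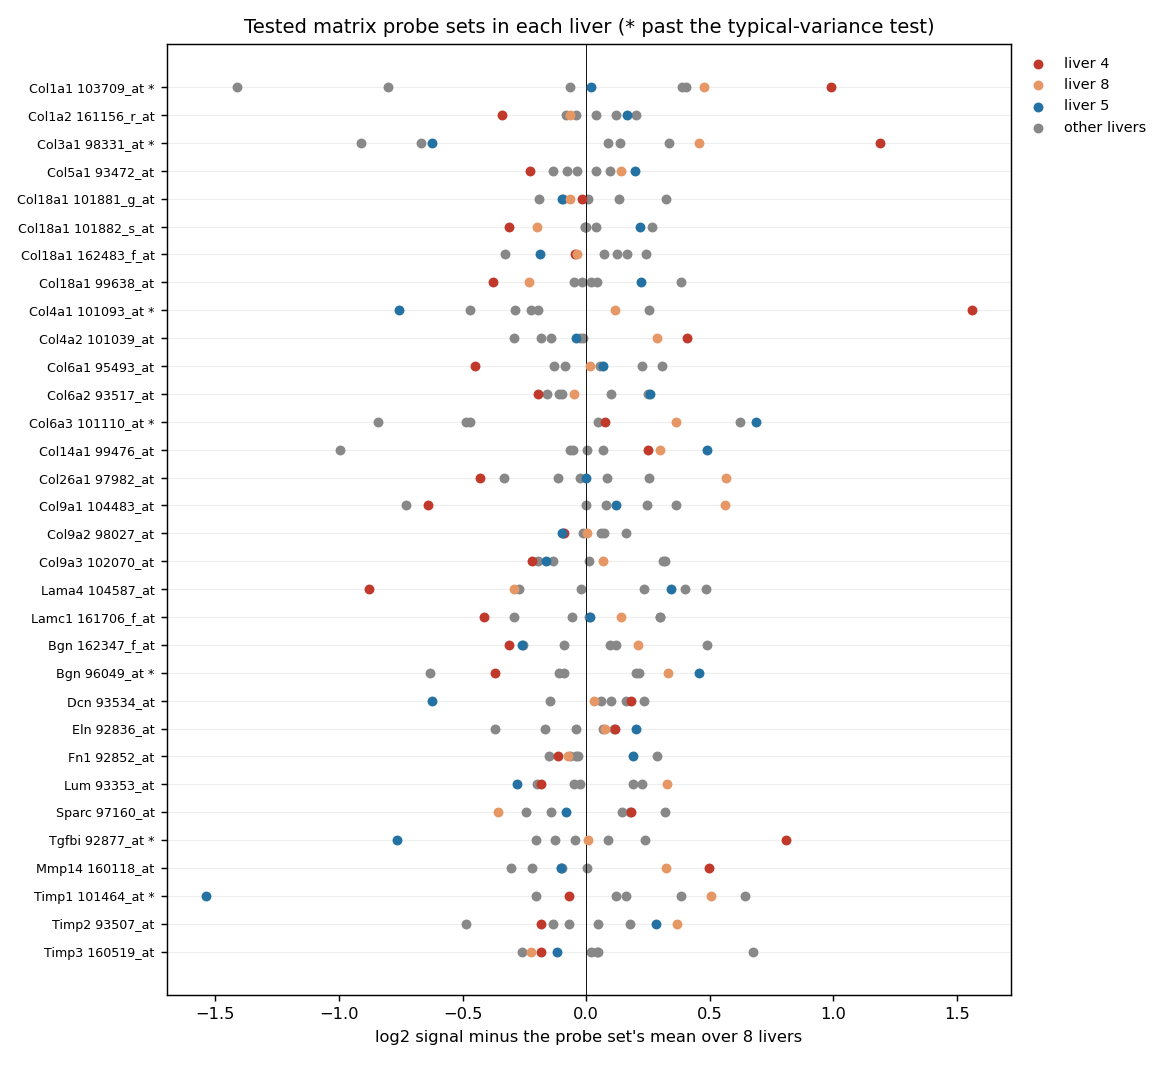
Log2 signal of each liver minus the probe set's mean over the 8 livers (horizontal axis) for the 32 tested matrix probe sets (rows, grouped by role), with livers 4, 5 and 8 in colour and an asterisk on the 7 that passed the typical-variance test. Liver 4 is at the right end for 6 rows and at the left end for 11.

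The matrix glycoproteins and proteoglycans were all detected in every liver except Lox, the enzyme that crosslinks collagen and elastin, whose probe sets were above the controls on no array. Fn1, fibronectin, which hepatocytes secrete, was even, at 2073 ± 233 (SD, n = 8) with a range of 1860 to 2517. Tgfbi, an adhesion protein induced by TGF-beta, ran from 340.2 in liver 5 through 570.2 to 1011 in liver 4, a 2.97-fold range (adjusted p = 0.0087). It was not called without liver 4 (adjusted p = 0.312), without liver 5 (0.174) or with arrays scaled to the same median (0.0533). Bgn, the small proteoglycan biglycan, ran on its called probe set from 893 in liver 3 through 1446 to 1898 in liver 5, a 2.13-fold range just under the threshold (adjusted p = 0.0447). That call was lost without liver 3 (adjusted p = 0.481), 5 (0.0856), 6 (0.0558) or 8 (0.0727) and under 6 other settings given in the closing section. The other Bgn probe set ran from 475.5 in liver 4 to 828 in liver 2, did not pass (adjusted p = 0.634), and had an r of 0.189 with the first (exact permutation p = 0.65, adjusted p = 0.709, rho = 0.143 with p = 0.752, r = 0.226 without livers 2 and 4, 0.491 over livers 1 to 4 and 0.242 over livers 5 to 8).

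Dcn, the collagen-binding proteoglycan decorin, was at 5131 ± 856 (SD, n = 8), between 3285 in liver 5 and 5942 in liver 3. Liver 5 was low and the other 7 livers lay between 4564 and 5942. Sparc, a collagen-binding glycoprotein, lay between 346 and 553, Lum, the proteoglycan lumican, between 198 and 302, and Eln, elastin, between 280.3 and 416, none past the test. Sparc with Col4a1 had an r of 0.201 (exact permutation p = 0.693, adjusted p = 0.713, rho = 0.0 with p = 1.0, 0.573 without livers 6 and 8, 0.481 over livers 1 to 4 and -0.60 over livers 5 to 8). Dcn with Col3a1 had an r of 0.241 (exact permutation p = 0.571, adjusted p = 0.713, rho = -0.095 with p = 0.84, -0.40 without livers 5 and 6, -0.41 over livers 1 to 4 and 0.946 over livers 5 to 8). The sign of both changed with 1 liver, to -0.17 for Sparc with Col4a1 without liver 4 and to -0.22 for Dcn with Col3a1 without liver 5.

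**Figure D5:**
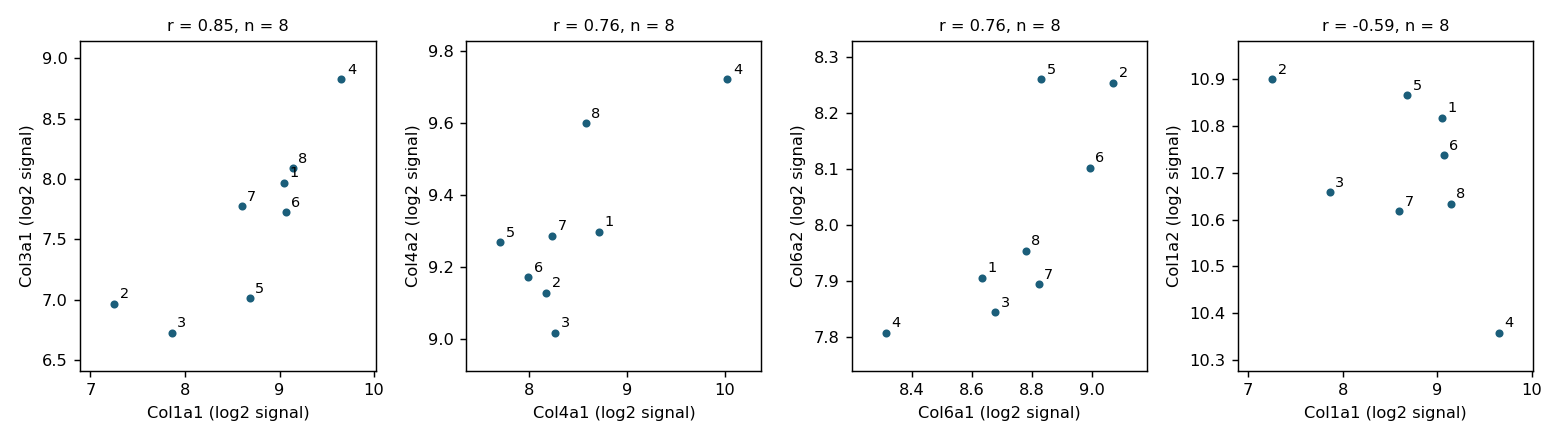
Log2 signals of the pairs Col1a1 with Col3a1, Col4a1 with Col4a2, Col6a1 with Col6a2 and Col1a1 with Col1a2 (one gene on each axis), 1 point per liver with its number, and Pearson's r above. Liver 4 is at the upper right for Col1a1 with Col3a1 and Col4a1 with Col4a2, at the lower left for Col6a1 with Col6a2 and at the lower right for Col1a1 with Col1a2. Col1a2 is shown by its brighter probe set, with which its dimmer one disagreed.

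Of the metalloproteinases only Mmp14 was bright enough to be tested. Mmp14, the membrane-bound enzyme that activates pro-Mmp2, ran from 773 in liver 2 through 892 to 1347 in liver 4, with liver 8 next at 1196, a 1.74-fold range that did not pass (adjusted p = 0.566). Mmp12, the macrophage elastase, was the dim member that differed most. Its brighter probe set read 23.2 in liver 3, 131 at the median and 914 in liver 4, with liver 8 next at 335, and it exceeded the controls on 7 arrays. With the lower limit for testing, at the 25th percentile, it was called (adjusted p = 4.06e-16). The other Mmp12 probe set, above the controls on 1 array, was also highest in liver 4, at 194, and was not called (adjusted p = 0.16). RefSeq gave 2 starts for Mmp12. The window before the downstream start, chr9:7347124-7347373 on the plus strand, held TGAGTCA at 44 to 38 bases before it, and the window of the other start held none of the 4 motifs. A sequence is shown because Mmp12 had the widest range among members above the controls on 7 or more arrays. Of its 2 windows, only the one that held a match is printed.
Mmp12: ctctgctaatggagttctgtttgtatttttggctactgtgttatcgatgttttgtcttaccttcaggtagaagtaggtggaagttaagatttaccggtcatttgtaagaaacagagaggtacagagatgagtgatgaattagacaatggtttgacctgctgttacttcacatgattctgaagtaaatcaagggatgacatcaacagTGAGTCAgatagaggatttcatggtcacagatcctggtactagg

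Macrophage genes were highest in the same liver as Mmp12 and 3 of the called collagens. Of 11 tested genes of the macrophage and Kupffer cell list 10 were called, against 12.4% of all tested probe sets. Like the other gene lists here, that list was chosen with earlier results of these data known, so its count is a description and no independent support. All 11 tested genes were highest in liver 4, among them Cd68 (246 in liver 3 to 819), Lyz2 (232 in liver 7 to 3563), Csf1r (499 in liver 7 to 1735) and C1qa (613 in liver 7 to 2525). Liver 8 was second highest for each of them except Clec4f, where it was liver 6. Col1a1, Col3a1 and Mmp12 were also second highest in liver 8, whereas Col4a1 was so in liver 1 and Tgfbi in liver 6. Of the 14 markers on the array 13 were highest in liver 4, and Adgre1, too dim on average to be tested, was highest in liver 8, at 267. The tested genes' summed signal ran from 5595 in liver 7 through 9503 to 24095 in liver 4, and every marker on the array exceeded the controls on at least 1 array. Of all 6211 tested probe sets 17.2% were highest in liver 4 and 22.6% lowest there. Among the 32 matrix probe sets 6 (18.8%) were highest in liver 4 and 11 (34.4%) lowest. Of the 7 called ones, 4 were highest in liver 4 (Col1a1, Col3a1, Col4a1 and Tgfbi). The calls of Col3a1, Col4a1 and Tgfbi were lost without liver 4, so that count follows in part from how members were called. The share of all called probe sets that were highest in liver 4 was not computed, so the count has no like share beside it. The part of macrophages in these matrix values was not tested.

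All 3 tissue inhibitors of metalloproteinases were detected in every liver, and Timp1 varied. Timp1, the inhibitor that is induced in injured liver, ran from 181 in liver 5 through 581 to 822 in liver 3. Liver 5 stood apart, since the next lowest liver read 457, and the 4.54-fold range (adjusted p = 1.61e-08) was not called without it (adjusted p = 0.349). Liver 4, highest for Col1a1, Col3a1 and Col4a1, was below the median for Timp1 at 501.5. Timp2 lay between 119.7 in liver 6 and 216 in liver 8 and Timp3 between 492 in liver 1 and 943 in liver 2, neither past the test. Mmp14 with Timp2, which form a complex at the cell surface, had an r of 0.152 (exact permutation p = 0.713, adjusted p = 0.713, rho = 0.024 with p = 0.977, 0.184 without livers 4 and 8, -0.90 over livers 1 to 4 and 0.674 over livers 5 to 8), and its sign turned without liver 6 (-0.11) or liver 8 (-0.14). The Timp1 window, chrX:20869916-20870165 on the plus strand, is shown as that of the inhibitor that varied. It held CCAAT in reverse orientation at 190 to 186 bases before the start and GGGCGG in reverse orientation at 8 to 3 bases before it, and these matches did not overlap.
Timp1: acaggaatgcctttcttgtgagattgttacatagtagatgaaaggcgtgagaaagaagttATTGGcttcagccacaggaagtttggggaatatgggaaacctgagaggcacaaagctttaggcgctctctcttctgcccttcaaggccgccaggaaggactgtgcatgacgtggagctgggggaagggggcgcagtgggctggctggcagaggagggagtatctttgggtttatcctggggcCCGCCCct

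Genes that process, signal to or bind the matrix were read against the 12.4% called among all tested probe sets. Of 12 tested genes for collagen folding, cleavage, crosslinking and related proteolysis, 1 was called: Ctss, the protease cathepsin S of antigen-presenting cells, at 699 in liver 7, 1361 at the median and 6113 in liver 4 (adjusted p = 3.96e-33). P4ha2, a collagen prolyl hydroxylase, lay between 304 and 433, and Bmp1, which trims procollagens, between 463 and 762. Of 12 tested genes of TGF-beta signalling 2 were called. Ltbp3, which holds latent TGF-beta in the matrix, ran from 224 in liver 4 through 519 to 674 in liver 2 (adjusted p = 3e-04). Tgif1, a repressor of the pathway, ran from 296 in liver 5 through 388 to 832 in liver 4 (adjusted p = 0.0141). Tgfb1, the main ligand, was above the controls on 1 array.

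Of 10 tested integrins and other matrix receptors 0 were called, and of 9 tested further matrix proteins also 0. With such small lists, these counts do not set them apart from all tested probe sets. Itgb1, the beta chain of most collagen receptors, lay between 4748 and 6669, and Vtn, the hepatocyte product vitronectin, between 10584 and 12861. Lgals3, a galectin of macrophages, had the largest SD of the receptor list, from 6.7 in liver 2 to 1049 in liver 4, and was too dim on average to be tested. Tnc, the matrix protein tenascin C, had the largest SD of the other list, from 9.8 in liver 7 to 85.5 in liver 4, above the controls on 1 array.

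Markers of the cells that make most fibrillar collagen gave mixed values. Calls in the cell type lists below stand beside the 12.4% called among all tested probe sets. Of the stellate cell and myofibroblast list 3 genes were tested (Des, Tagln and Reln), 0 were called, and their summed signal was lowest in liver 4, at 829, and highest in liver 2, at 1326. That sum followed mainly Reln, at 444 in liver 4 and 786 at the median. Des was also lowest in liver 4, at 139 with a median of 168, whereas Tagln, a smooth muscle protein, was highest there, at 246. Of the 11 markers on the array 5 were highest in liver 4, among them the untested Pdgfrb, a stellate cell receptor, at 95.3, and Hgf at 61.7. Acta2, the actin of activated stellate cells, was not tested and ran from 22.1 in liver 2 through 140.3 to 204 in liver 4. Thy1, read here only as a member of this list, ran from 17.4 in liver 3 to 158 in liver 4, above the controls on 2 arrays. Cnn1 was above them on none. Of 6 tested endothelial genes 0 were called, with a summed signal from 2896 in liver 7 to 4873 in liver 5, and Pecam1, too dim to be tested, had the largest SD, from 39.2 in liver 3 to 293 in liver 5.

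Of 6 tested neutrophil and lymphocyte genes 0 were called, against 12.4% of all tested probe sets, and their summed signal ran from 1212 in liver 4 to 1757 in liver 2. Of the 16 markers on the array 5 were highest in liver 4, all too dim on average to be tested. Ptprc, the pan-leukocyte marker, had the largest SD, from 63.1 in liver 5 to 436 in liver 4. S100a8 and S100a9, neutrophil calcium-binding proteins, reached 369 and 231 there, with medians of 106 and 80.1, and Cd3e, a T cell receptor component, reached 224 with a median of 57.6. Other members differed: the tested Camp was lowest in liver 4, at 113 with a median of 233, and Ltf was highest in liver 6, at 99.2. Cd3g and Cd3d were highest in liver 8 and above the controls on no array. No cholangiocyte marker was tested, and 4 of 5 were above the controls on no array (Krt19, Epcam, Cldn7 and Krt7, which had the largest SD, from 14.8 in liver 7 to 42.3 in liver 6). Hepatocyte markers were bright in all livers, with Alb between 25310 and 37059. Of 10 tested, 4 were called, against 12.4% of all tested probe sets: Tat, Hnf4a, Fgb and Apob. Apob, an apolipoprotein, had the widest range of these, from 2262 in liver 5 to 11417 in liver 3.

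Where a gene had several probe sets, these often disagreed. Of 23 such genes, 7 had pairs above the controls on at least 4 arrays each, giving 12 pairs. In 9 of 12 pairs r was above 0, the median r was 0.265, and 2 pairs passed the exact permutation test after adjustment, those of Col18a1 and Col1a1 given above. Col5a1, Lama5 and Col13a1 were among those that did not pass. For Col5a1 r was 0.065 and rho -0.24, with r = -0.28 without livers 3 and 5, 0.088 over livers 1 to 4 and -0.82 over livers 5 to 8. For Lama5 r was -0.24 and rho -0.36, with r = -0.56 without livers 1 and 7, -0.95 over livers 1 to 4 and -0.084 over livers 5 to 8. For Col13a1 r was -0.24 and rho 0.048, with r = 0.482 without livers 4 and 5, 0.788 over livers 1 to 4 and -0.64 over livers 5 to 8. Where probe sets of a gene disagreed, a value belongs to the probe set named and not to the gene.

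Over probe sets that are no controls, the median signal of the 8 arrays ran from 155.6 for liver 3 to 177.9 for liver 4 and 180.8 for liver 8. Scaling the arrays to the same median lowered the member calls from 7 to 4. The highest bacterial or yeast control lay between 47.9 and 79.1. Spike-in controls split the arrays, at a mean log2 signal of 10.70 or more on arrays 1 to 4 and 10.46 or less on arrays 5 to 8, while the labels name no batch. Values within each set of 4 arrays are therefore given beside the correlations. The labels number the samples 1 to 8 and give each as the liver of a mouse, and the number of arrays limits the precision of every value.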

How the data were processed

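Liver RNA of 8 mice was hybridised to 1 array each, per the labels' protocols. The deposited table holds the authors' intensity per probe set on a linear scale. For its software, scaling and detection calls, nothing is given in the sources used here, but the arrays' trimmed means differed by 0.00896%, so the deposited intensities were already scaled. Values under the 10th percentile (11.2) were set to it before log2. Symbols came from the platform annotation, and all 94 member entries were found in RefSeq with 0 symbols changed. Members and gene lists were chosen with earlier results of these data known.

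The brighter part of the 12422 probe sets was tested, those whose mean log2 signal exceeded the median probe set's (a signal of 162). The variance over 8 arrays (7 degrees of freedom) was divided by a typical variance, read at the same mean signal off a loess curve (span 0.3), and compared with a chi-square distribution, one-sided, with Benjamini-Hochberg adjustment over 6211 probe sets. Adjusted p-values of variances in the text come from this model fitted across all tested probe sets. A call says that a probe set varied more than most, for any reason. The alternative test used limma 3.58.1 in R 4.3.3 (trended robust prior). Where a gene had several tested probe sets, the brightest stood for it. Correlations used log2 signals and exact two-sided permutation tests over 40320 pairings, adjusted over the 7 of 13 listed pairs that could be run (or over 12 pairs of probe sets). The detection rule, above 19 bacterial and yeast controls, was chosen after the values were seen.

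Both variance tests were tested on simulated data of 6211 probe sets with 100 given a larger SD. With equal SDs elsewhere the typical-variance test recovered 92 of 100 at a 3-fold SD and 100 at 6-fold, and limma 88 and 100. With unequal SDs elsewhere it recovered 82 and 99 and also called 571 and 586 of the other 6111, while limma recovered 0 and 18. Named with values were all members called, the most and least variable tested member of each role group, all listed pairs, genes with several probe sets, and called members of the other lists or, where none was called, the member with the largest SD. Some further list members and all values of dim probe sets (Mmp12 and others) were singled out after their values were seen. Alternatives were another floor, a pseudocount of 16, median and quantile scaling, other filters and loess span, removal of probe sets with shared sequences, centring within arrays 1 to 4 and 5 to 8, and leaving out each array. Leaving out arrays 4 and 8 together was added after seeing the data.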

Additional observations from a re-analysis of the deposited data

Results flagged for a closer look

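Among the 32 tested matrix probe sets, 5 (15.6%) had 1 liver far from the other 7, where on the log2 scale the gap to the nearest liver, as a share of the whole range of 8 livers, exceeded Dixon's critical value. Chance flags about 1 in 20 such groups, and 7.0% of all 6211 tested probe sets exceeded it. On the linear scale 2 of the 32 (6.25%) exceeded it, against 7.54% of all, so 3 of the 5 rest on the log2 scale. For Timp3, an inhibitor of metalloproteinases bound to the matrix, liver 2 was high at 943 against 611 in the next liver, a gap of 0.668 of the log2 range and 0.737 of the linear range. For Col4a1, liver 4 was high at 1044 against 422 (0.564 on the log2 and 0.746 on the linear scale). For Col14a1, liver 3 was low at 117 against 223 (0.626 on the log2 scale, and 0.503 on the linear scale, under the critical value). For Timp1, liver 5 was low at 181 against 457 (0.612 on log2, 0.43 on linear). For Dcn, liver 5 was low at 3285 against 4564 (0.555 on log2, 0.481 on linear). Of these 5 probe sets, Col4a1 and Timp1 passed the typical-variance test.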

How the results depend on the processing

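The 7 calls (21.9% of members against 12.4% of all) became 0 with limma, 4 with median scaling (12.5% against 10.6%), 4 without livers 4 and 8 (12.1% against 9.34%), 11 with no filter on dim probe sets (11.7% against 9.69%), and 4 to 8 with 1 array left out. Without liver 4 the 4 calls were 12.1% against 10.6% of all, and without liver 5 also 4, 12.1% against 12.1%. Median scaling changed the arrays' levels relative to each other by up to 0.22 on the log2 scale. The Bgn call was lost with limma, median scaling, centring within arrays 1 to 4 and 5 to 8, loess span 0.6 and either lower filter. With the filter at the 25th percentile 64 probe sets were tested, the median fold range was 2.14 and the mean pairwise r was 0.0651. The median fold range was 1.48 without livers 4 and 8 and 1.55 to 1.72 with 1 array left out. For Col1a1 with Col3a1, r was 0.883 when centred within arrays 1 to 4 and 5 to 8 (exact permutation, adjusted p = 0.162), 0.756 without livers 4 and 8 (adjusted p = 0.34), and 0.796 to 0.917 with 1 array left out. For Col6a1 with Col6a2, r was 0.821 with median scaling, 0.798 with quantile normalization and 0.664 to 0.861 with 1 array left out. For Col4a1 with Col4a2 it was 0.409 to 0.832 with 1 array left out. The sign turned for Mmp14 with Timp2 under median scaling (-0.0017, and -0.14 to 0.531 with 1 array left out), for Sparc with Col4a1 when centred (-0.0051, and -0.17 to 0.427), and for Dcn with Col3a1 (-0.22 to 0.524). The causes were not tested. Quantile normalization, another floor and the pseudocount changed no member's call. Folds of dim probe sets are uncertain, since such signals lie close to those of the controls. No paired analysis was possible because the labels give only 1 group.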
